A study of Mus musculus with 11 samples.

Results

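The circadian clock genes described here are the repressors Per1, Per2, Per3, Cry1 and Cry2, the nuclear receptors Nr1d1 and Nr1d2, the output factors Dbp and Tef, and the activator Clock. They are 10 of the 18194 single genes on the array, and they were measured by every probe set that the platform annotation maps to exactly 1 of these symbols. That gave 24 of the 45101 probe sets of the array, 19 of which reached a mean signal of 20 and were tested among 33662 tested probe sets. RNA was taken from the whole main olfactory epithelium (MOE), the tissue that holds the olfactory sensory neurons (OSNs), at postnatal day 0. There were 5 wild type preparations and 6 from conventional Bcl11b knockout (KO) mice, in which the gene of the zinc finger transcription factor Bcl11b is disrupted throughout the body. All were offspring of parents heterozygous for the KO, labelled as BALB/c, with 1 array for each preparation. The wild type mice and 4 of the KO mice were male, and KO 3 and KO 6 were female. Litter, day and time of day of dissection are not given in the sources used here.

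In the mammalian clock, CLOCK pairs with ARNTL (BMAL1), or NPAS2 takes the place of CLOCK, and the pair activates genes with E-box elements, among them the Per and Cry genes, Nr1d1, Nr1d2, Dbp and Tef. PER and CRY proteins feed back to inhibit this pair, while NR1D1 and NR1D2 (REV-ERB alpha and beta) repress Arntl, Npas2, Clock, Cry1 and Nfil3 through ROR elements. DBP and TEF activate D-box genes such as the Per genes, and NFIL3 represses at the same element. Across the day the E-box and D-box genes and the Arntl group therefore tend to peak at opposite times in most tissues. A difference of clock phase between arrays could then show as the first group rising while the second falls. Cry1 peaks later than the Per genes and Clock changes little, so a difference of phase need not move all genes of a group alike. Rhythmic clock gene expression has been described in the olfactory system of adult rodents, whereas oscillations in many tissues are still weak around birth.

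The promoter windows of the members with a perfect E-box or D-box are shown because the clock acts on its targets through these elements. The arms compared below were set by what is known of the genes and not by these matches. RefSeq windows of build GRCm38.p6, from 250 bases before to 50 bases after a start, were found for 9 of the 10 members (13 windows). The motifs searched, on both strands, were the E-box CACGTG, the D-box TTATGTAA or TTACGTAA, the ROR element TAGGTCA or TGGGTCA, and the cAMP response element TGACGTCA. A perfect E-box stood in 4 windows of 3 members, against 7.15% of all 32851 windows of the table. It began 166 bases before the start in Per1 (chr11:69098699-69098998, plus strand), 60 bases before it in Cry1 (chr10:85185005-85185304, minus strand), and 127 and 138 bases before it in the windows of Tef, the first of them at chr15:81802423-81802722 on the plus strand. Per3 (chr4:151044616-151044915, minus strand) held the D-box TTATGTAA at 205 and again at 158 bases before its start, a motif present in 1.06% of all windows. The ROR element and the cAMP response element were in 0 windows of members, against 6.45% and 1.79% of all windows. A match is a match of letters, and these windows leave out enhancers and more distant elements. Capitals mark the E-box in the first 3 sequences and the D-box in the last.
Per1: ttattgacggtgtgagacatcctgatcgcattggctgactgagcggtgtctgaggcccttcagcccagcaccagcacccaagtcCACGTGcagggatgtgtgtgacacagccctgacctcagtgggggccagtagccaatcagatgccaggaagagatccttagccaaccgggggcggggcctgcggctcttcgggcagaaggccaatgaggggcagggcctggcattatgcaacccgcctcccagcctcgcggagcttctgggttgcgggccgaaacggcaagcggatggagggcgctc
Cry1: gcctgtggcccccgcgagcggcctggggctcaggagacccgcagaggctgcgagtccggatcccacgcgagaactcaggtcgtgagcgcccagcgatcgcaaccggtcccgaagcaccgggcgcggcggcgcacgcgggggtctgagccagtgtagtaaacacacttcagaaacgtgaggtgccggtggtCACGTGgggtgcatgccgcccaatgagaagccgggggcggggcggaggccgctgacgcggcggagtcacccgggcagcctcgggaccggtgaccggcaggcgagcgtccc
Tef: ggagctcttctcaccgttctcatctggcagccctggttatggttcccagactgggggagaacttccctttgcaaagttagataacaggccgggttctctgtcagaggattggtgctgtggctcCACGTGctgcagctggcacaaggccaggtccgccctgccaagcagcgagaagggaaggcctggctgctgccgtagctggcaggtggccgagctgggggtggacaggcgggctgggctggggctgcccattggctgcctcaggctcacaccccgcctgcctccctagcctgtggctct
Per3: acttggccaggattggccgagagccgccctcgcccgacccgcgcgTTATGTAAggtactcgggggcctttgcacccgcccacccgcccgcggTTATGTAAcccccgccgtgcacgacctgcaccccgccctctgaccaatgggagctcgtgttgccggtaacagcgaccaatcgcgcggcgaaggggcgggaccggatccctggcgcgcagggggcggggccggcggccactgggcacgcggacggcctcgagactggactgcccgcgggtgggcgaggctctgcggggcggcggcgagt

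The deposited signals are linear intensities scaled to GAPDH on each array, and differences are given on the scale of log2(signal + 16), KO minus wild type. Median signals were 56.6 to 85.5 in wild type and 61.9 to 86.3 in KO. The Bcl11b transcript read 2694 to 4123 on the wild type arrays and 560.5 to 1250 on the KO arrays (limma, adjusted p = 1.2e-05). Of all tested probe sets, limma called 153 at an adjusted p under 0.05 (82 higher and 71 lower in the KO), or 0.455%. The split was 120 higher and 173 lower with quantile normalization, and 60 and 256 with scaling to spiked hybridization controls. Mature OSN markers were lower in the KO on 12 of 12 probe sets, 2 of which passed the test. Summed over the brightest probe set of each marker gene, their signal was 6028 to 7845 in wild type and 3950 to 5194 in KO. The defining marker Omp was well above 0 on all 11 arrays (238.7 to 702.3). Sustentacular markers were below 0 on 5 of 5 probe sets (median -0.32), 3 of them at an unadjusted p under 0.05, and 0 passed. Of the lists for immature OSNs, basal, glial and erythroid cells, the last with 1 tested probe set, 0 probe sets passed. In whole tissue, fewer cells of a type and less RNA per cell cannot be told apart. The GAPDH 3'/5' ratio, which rises as RNA degrades, was highest on KO 3 (2.70) and KO 2 (2.42), against 1.82 to 2.27 on the other arrays.

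None of the clock genes was called between KO and wild type. Of the 19 tested probe sets, 0 passed the adjusted p, against 0.455% of all probe sets, and 2 had an unadjusted p under 0.05 (Per1 and 1 probe set of Per2), against 6.92% of all. The arrays of the groups overlapped on every one of them, while 1.29% of all probe sets had groups apart. Differences ran from -0.16 to 0.69 with 9 above and 10 below 0, while 60.4% of all tested probe sets were above 0. Their median was -0.04, beside 0.05 over all probe sets tested. Over the brightest probe set of each clock gene the median was 0.05. Adjusted p-values lay between 0.42 and 0.9996 (limma).

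**Figure D1:**
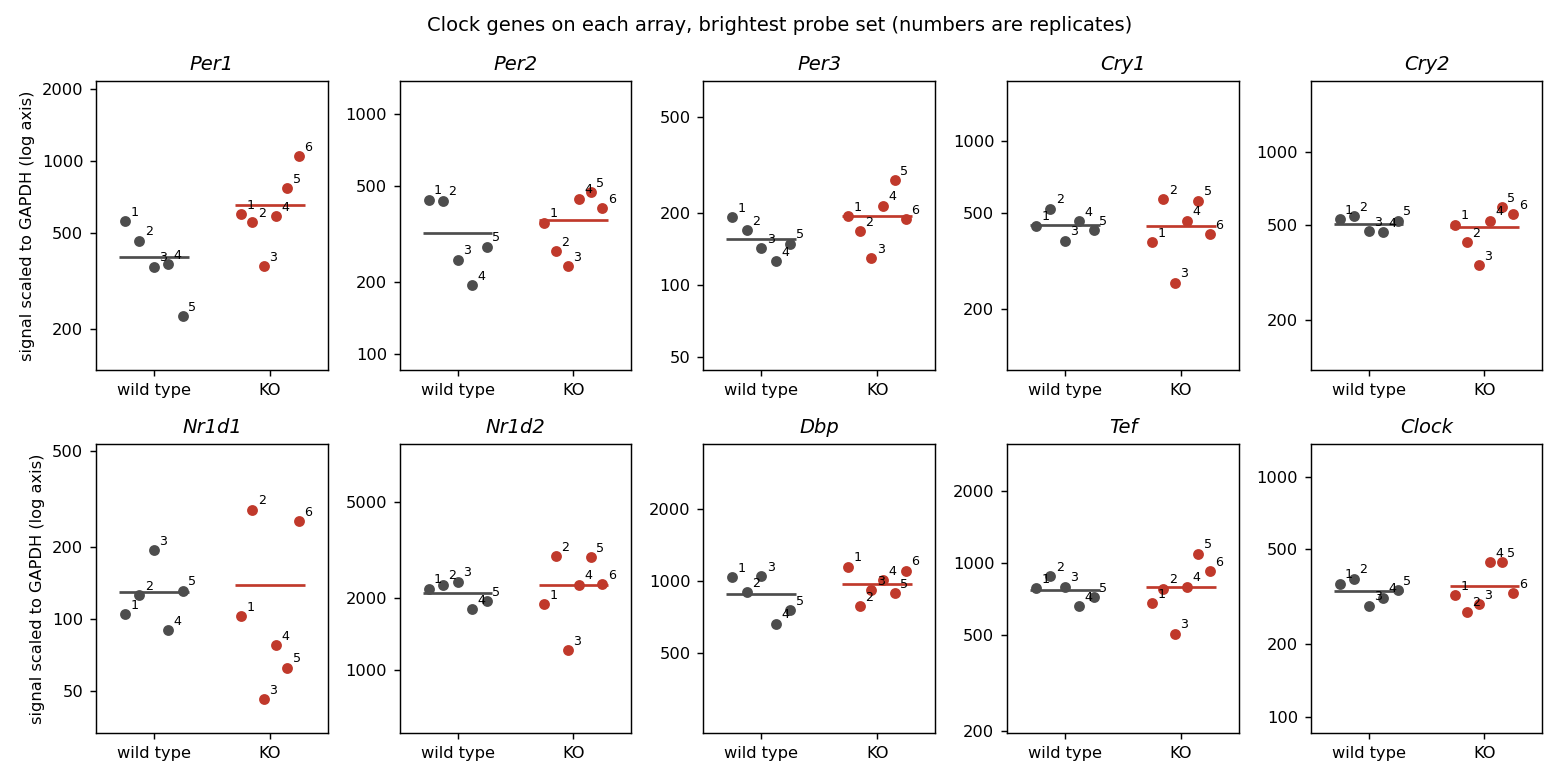
GAPDH-scaled signal of the brightest probe set of each clock gene on the 5 wild type (grey) and 6 KO (red) arrays, on log axes that span the same ratio in every panel, with replicate numbers beside the points and lines at the group means. The groups overlap in every panel, and KO 3 is the lowest KO array in 8 of the 10.

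Per1, the repressor that is also an immediate target of glucocorticoid and cAMP signals, had the largest difference of the 19 probe sets. Its signal was 560.4, 465.2, 363.7, 371.0 and 225.9 on wild type arrays 1 to 5, and 601.5, 557.9, 365.3, 589.7, 772.9 and 1051 on KO arrays 1 to 6. KO 1, KO 4, KO 5 and KO 6 were above every wild type array and KO 2 just under WT 1, whereas KO 3 lay beside WT 3 and WT 4. The means were 397 ± 125 (SD, n = 5) and 656 ± 233 (SD, n = 6). The log2 difference was 0.69 ± 0.24 (SE; 95% interval 0.18 to 1.20) with an adjusted p of 0.42 over all probe sets (limma). The difference was above 0 under all 28 alternatives, between 0.51 and 0.92, with adjusted p-values from 0.07 to 0.95, so that it did not pass under any of them.

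Per2, the partner repressor, was read by 2 probe sets that passed the signal filter. The brighter gave 440.0, 435.6, 248.1, 193.6 and 280.9 in wild type and 353.5, 269.4, 233.1, 444.1, 474.5 and 406.1 in KO. The wild type arrays split into a pair near 440.0 and 3 arrays under 281, and the KO arrays covered most of the same span, with KO 4 and KO 5 above it. Its log2 difference was 0.20 ± 0.23 (SE; 95% interval -0.28 to 0.68; limma adjusted p = 0.97). Without WT 4 it was 0.05 and without WT 1 it was 0.33. The dimmer probe set had means of 56.1 ± 14.6 (SD, n = 5) and 82.6 ± 11.3 (SD, n = 6) in wild type and in KO. Its log2 difference was 0.47 ± 0.18 (SE; 95% interval 0.09 to 0.86; limma adjusted p = 0.53). Its groups overlapped only through KO 2 (62.8), which read below WT 2 (69.4), and WT 1 was far below the other wild type arrays at 31.1. The dimmest probe set of Per2 had a mean of 19.9, just under the filter, and was not tested.

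Per3, which has a weaker role as a repressor than the other Per genes, had 6 probe sets, 4 of them tested. On the brightest, wild type arrays read 191.5, 169.0, 142.4, 125.5 and 148.7 and KO arrays ran from 129.2 (KO 3) through a median of 190.6 to 273.5 (KO 5). The log2 difference was 0.28 ± 0.18 (SE; 95% interval -0.10 to 0.65; limma adjusted p = 0.90). The remaining tested probe sets gave 0.01, -0.09 and -0.16, so the probe sets of this gene did not share a direction. The 2 dim ones averaged 12.7 and 7.62.

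Cry1, a cryptochrome whose transcript peaks later than those of the Per genes, was read by a single probe set, with 444.8, 523.6, 385.3, 465.2 and 425.0 in wild type and from 257.8 (KO 3) through a median of 437.4 to 573.2 (KO 2) in KO. KO 2 and KO 5 were above and KO 1 and KO 3 below the whole wild type range. Its log2 difference was -0.06 ± 0.18 (SE; 95% interval -0.45 to 0.32; limma adjusted p = 0.99). Cry2, the other cryptochrome, read 526.7, 543.1, 467.8, 464.2 and 517.9 in wild type and 500.1, 421.4, 339.5, 519.2, 591.8 and 551.9 in KO, with KO 3 again lowest and KO 5 highest. The log2 difference of Cry2 was -0.07 ± 0.15 (SE; 95% interval -0.38 to 0.25; limma adjusted p = 0.99).

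Nr1d1 was the most variable member. Its signal was 104.7, 125.5, 193.3, 89.6 and 131.2 in wild type and 102.8, 285.1, 46.4, 77.6, 62.5 and 255.3 in KO. KO 2 and KO 6 lay above every wild type array and KO 3, KO 4 and KO 5 below every one, which put the KO arrays on both sides of the wild type range. The highest KO array was 6.14 times the lowest, against 2.16 times in wild type, and the SD on the log2 scale was 0.95 in KO and 0.37 in wild type. Its spread within groups was above that of 98.7% of tested probe sets. The group means were 129 ± 39.7 (SD, n = 5) and 138 ± 104 (SD, n = 6). The log2 difference was -0.14 ± 0.35 (SE; 95% interval -0.88 to 0.61; limma adjusted p = 0.99). The fold change in the KO was 0.91 and the interval ran from 0.54 to 1.52, so that changes within that range were not resolved.

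Nr1d2, the related receptor, was among the brightest clock probe sets and did not follow Nr1d1 on each array. It read 2177, 2269, 2332, 1790 and 1938 in wild type and 1884, 2982, 1207, 2266, 2951 and 2270.3 in KO. KO 2 was high and KO 3 low for both receptors, whereas KO 5 was among the highest for Nr1d2 and among the lowest for Nr1d1. The log2 difference of Nr1d2 was 0.05 ± 0.18 (SE; 95% interval -0.34 to 0.44; limma adjusted p = 0.99). Its dim probe set averaged 5.42 and was not tested.

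Dbp, whose transcript has one of the widest daily swings of any clock output in adult tissues, read 1038.5, 901.0, 1046.5, 664.7 and 754.3 in wild type and 1149, 785.1, 915.4, 1010.0, 890.4 and 1106 in KO. KO 1 and KO 6 were above the wild type range and the other KO arrays lay within it. The means were 881 ± 170 (SD, n = 5) and 976 ± 138 (SD, n = 6). The log2 difference was 0.15 ± 0.15 (SE; 95% interval -0.16 to 0.47; limma adjusted p = 0.96). The dimmer Dbp probe set gave -0.06 ± 0.17 (SE).

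Tef, the second PAR bZIP output factor, read 783.3, 877.8, 796.2, 660.0 and 718.6 in wild type and 679.0, 780.3, 506.9, 795.6, 1089.6 and 924.2 in KO, with a log2 difference of 0.02 ± 0.17 (SE; 95% interval -0.33 to 0.37; limma adjusted p = 0.997). Its second probe set gave -0.13 ± 0.24 (SE), with WT 2 at 243.6 against 82 to 141.4 on the other wild type arrays. Clock, the activator, is known for little daily change of its transcript in most tissues. Its brightest probe set read 357.6, 375.1, 289.4, 313.4 and 335.6 in wild type and 321.3, 273.6, 294.0, 440.3, 440.0 and 327.6 in KO, a log2 difference of 0.04 ± 0.16 (SE; 95% interval -0.28 to 0.37; limma adjusted p = 0.99). The other 3 Clock probe sets gave -0.04, -0.05 and -0.08.

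**Figure D2:**
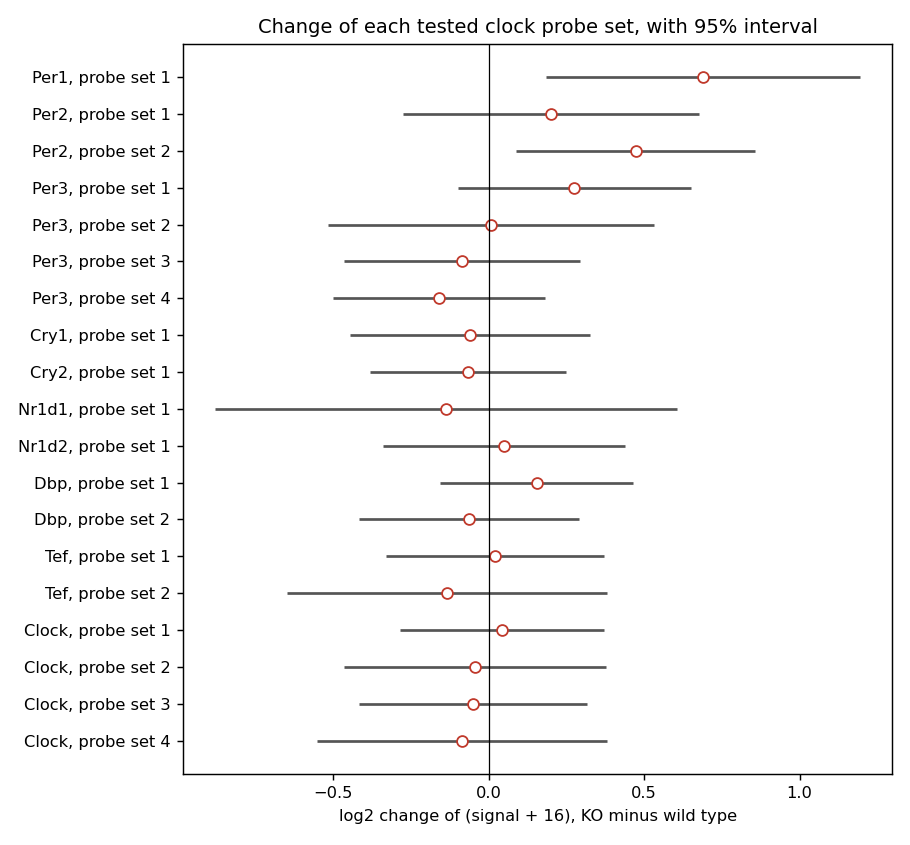
Log2 difference (KO minus wild type, limma) of each of the 19 tested clock probe sets, as points with 95% intervals, ordered by role from the Per genes to Clock. Only the interval of Per1 (0.18 to 1.20) and that of the second Per2 probe set (0.09 to 0.86) leave out 0, and the interval of Nr1d1 is the widest.

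To ask whether the arrays differed in clock phase, each gene was centred on its mean over the 11 arrays, and the mean of the Arntl arm (Arntl, Npas2, Clock, Cry1 and Nfil3) was subtracted from that of the E-box and D-box arm (Per1, Per2, Per3, Dbp, Tef, Nr1d1 and Nr1d2). This index is a score over the members and is given without a test. On wild type arrays 1 to 5 it was 0.09, -0.05, 0.13, -0.34 and -0.15, and on KO arrays 1 to 6 it was 0.09, -0.03, -0.07, -0.06, -0.11 and 0.52. Wild type arrays averaged -0.06 ± 0.19 (SD, n = 5) and KO arrays 0.05 ± 0.24 (SD, n = 6), so that the difference of 0.12 was smaller than the spread within either group. Of the 6 KO arrays, 5 lay inside the wild type range, and without KO 6 the difference was 0.03. Without Per1 the difference was also 0.03, against 0.09 to 0.18 when any other gene was left out in turn. The arrays fell into a set of 5 with higher and a set of 6 with lower signals of the poly-A controls, which are spiked in before labelling, and within these sets the difference was 0.09 and 0.12.

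On most arrays the 2 arms shifted in the same direction. KO 3 was the lowest array in both arms (-0.54 in the E-box and D-box arm and -0.47 in the Arntl arm), and KO 5 was high in both (0.27 and 0.38). KO 6 was high in the E-box and D-box arm (0.44) and near the mean in the Arntl arm (-0.08), and WT 4 was low in the first (-0.40) and near the mean in the second (-0.06). The differences between group means were 0.18 for the first arm and 0.06 for the second. Pearson correlations of the deviations from group means over the 11 arrays, given as a description since all genes share the arrays and their scaling, had a median of 0.52 over the 21 pairs within the E-box and D-box arm, 0.41 over the 10 pairs within the Arntl arm, and 0.39 over the 35 pairs between the arms. With scaling to the array median these medians were 0.41, 0.47 and 0.35. The pair of Arntl and its repressor gene Nr1d2 had 0.91, both being high on KO 2 and KO 5 and lowest on KO 3, while Nr1d1 and Clock had -0.47, the lowest of the pairs between the arms.

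**Figure D3:**
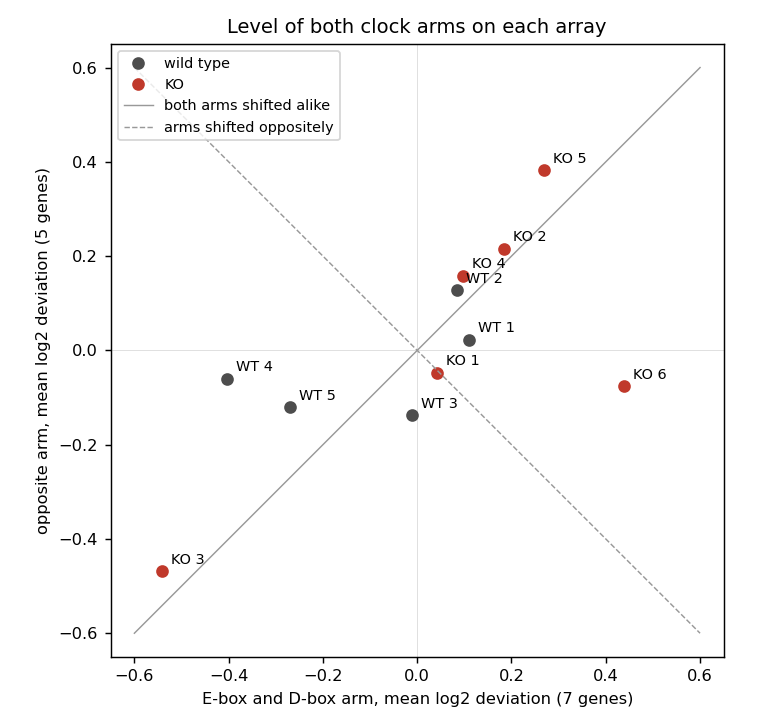
Mean log2 deviation of the E-box and D-box arm (7 genes, horizontal) against that of the Arntl arm (5 genes, vertical), 1 point for each wild type (grey) or KO (red) array, with a solid line where both arms shift alike and a dashed line where they shift oppositely. KO 3 and KO 5 lie near the solid line at opposite ends, KO 6 is the point farthest to the right, and no array lies at the ends of the dashed line.

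Deviations of Dbp were compared with those of 6 other clock genes over the 11 arrays after removal of group means (two-sided permutation tests with 100000 permutations, adjusted over the 6 pairs). With Per2, Pearson's r was 0.52 (p = 0.10, adjusted p = 0.48) and Spearman's rho was 0.47 (p = 0.15, adjusted p = 0.62). With Per1, r was 0.46 (p = 0.16, adjusted p = 0.48) and rho was 0.34 (p = 0.31, adjusted p = 0.62), and with Per3 r was 0.33 (p = 0.32, adjusted p = 0.65) and rho 0.38 (p = 0.25, adjusted p = 0.62). None of these correlations passed the test. Values for both receptors were smaller, with r = 0.12 (p = 0.73, adjusted p = 0.88) and rho = 0.12 (p = 0.73, adjusted p = 0.86) for Nr1d1 and r = 0.02 (p = 0.96, adjusted p = 0.96) and rho = 0.06 (p = 0.86, adjusted p = 0.86) for Nr1d2. Arntl, from the opposite arm, had r = -0.22 (p = 0.52, adjusted p = 0.78) and rho = -0.24 (p = 0.49, adjusted p = 0.73). Without WT 4 and KO 1, the arrays farthest from the Dbp median, r was 0.63 with Per1, 0.35 with Per2, 0.17 with Per3, 0.02 with Nr1d1, -0.06 with Nr1d2 and -0.23 with Arntl. Among the 6 arrays of lower poly-A controls the values in the same order were 0.23, 0.57, 0.42, 0.01, -0.03 and -0.29, and the 5 arrays of higher controls were fewer than the 6 required here for a correlation. Scaling to the array median turned the values with Per2 to -0.26 and with Per3 to -0.20. Under it r was 0.29 with Per1, 0.38 with Nr1d1, -0.04 with Nr1d2 and -0.41 with Arntl, and none passed the permutation test.

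**Figure D4:**
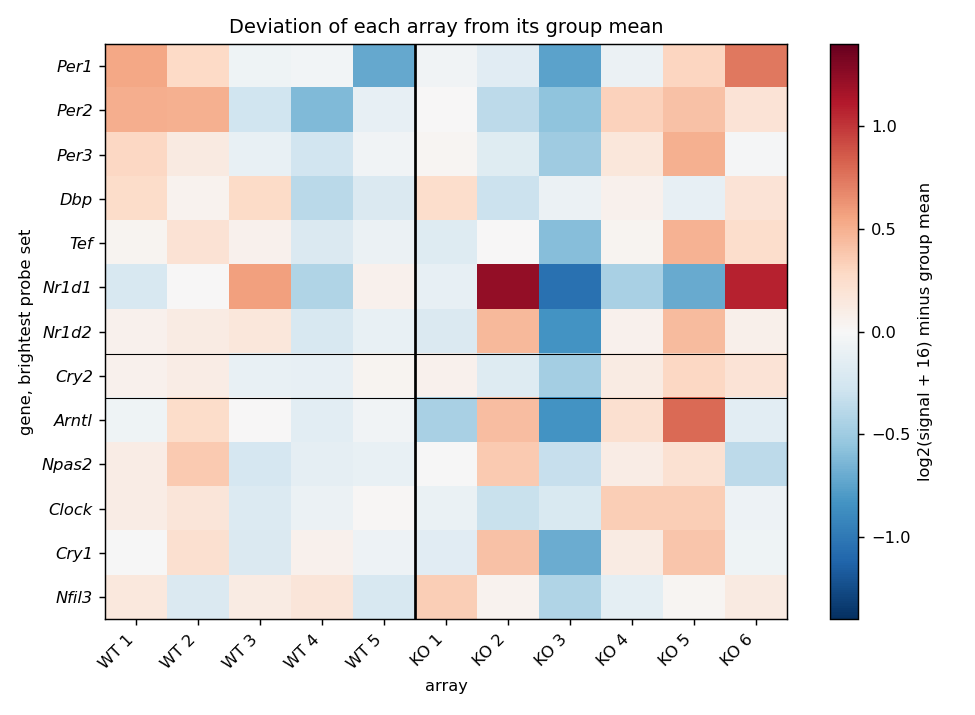
Deviation of each array (columns, wild type left and KO right of the line) from its group mean in log2(signal + 16), for the 7 genes of the E-box and D-box arm, Cry2 and the 5 genes of the Arntl arm (rows), red above and blue below the mean. The KO 3 column is blue in all 13 rows, and Nr1d1 has the strongest colours, red on KO 2 and KO 6.

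Spread was wider among KO than among wild type arrays over the whole array, with median SDs on the log2 scale of 0.32 and 0.25 over all tested probe sets. For the brightest probe set of each member this median was 0.19 in wild type and 0.38 in KO, and 8 of 10 members were wider in KO (80%), beside 65.8% of all tested probe sets. Over all 19 member probe sets it was 13 (68.4%), close to that share. On the brightest probe sets, KO 3 was the lowest KO array for 8 of the 10 members and KO 2 for the other 2. Over all tested probe sets, dim ones included, KO 3 was lowest for 39.8%. Dimmer member probe sets differed among themselves. The second Dbp probe set was lowest on KO 3 (188.7), the second Per2 one on KO 2 (62.8) and the fourth Per3 one on KO 5 (51.2). KO 3 and KO 2 were also the arrays with the highest GAPDH 3'/5' ratios, and the part of RNA integrity in these values was not tested. With both left out the difference of Per1 was 0.92 (limma adjusted p = 0.07) and the clock probe sets called stayed at 0. KO 3 and KO 6, the arrays from females, lay far apart, with Per1 at 365.3 and 1050.5 and Nr1d1 at 46.4 and 255.3. With males alone the clock probe sets called were also 0.

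The other genes of the clock were read through a list of 25 genes, of which 23 had probe sets (54 tested). Of these 0 passed the adjusted p, against 0.455% of all probe sets. An unadjusted p under 0.05 was found for 4 (limma), against 6.92% of all. Groups were apart on 1, against 1.29% of all, and the median difference was 0.06. Arntl, the partner of CLOCK, differed by 0.02 ± 0.23 (SE; limma adjusted p = 0.997) and Npas2, which can replace CLOCK, by 0.01 ± 0.18 (SE; adjusted p = 0.999). Nfil3, the repressor at the D-box, differed by 0.29 ± 0.15 (SE; limma adjusted p = 0.81). The gene of smallest p was Usp2, a deubiquitinase known from the mouse clock, whose mean signal was 342 ± 79.4 (SD, n = 5) in wild type, against 501 ± 110 (SD, n = 6) in the KO. Its log2 difference was 0.53 ± 0.18 (SE; limma adjusted p = 0.38). On its second probe set all KO arrays (364.4 to 512.4) were above all wild type arrays (301 to 361.6), a difference of 0.36 (adjusted p = 0.48). Nampt, an enzyme of NAD salvage, gave 0.39 (adjusted p = 0.59), Timeless 0.32 (adjusted p = 0.79), and the receptor Rora 0.11 on its brightest and 0.37 on a dimmer one (adjusted p = 0.99 and 0.72).

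Per1 is known to be induced by glucocorticoid and by cAMP signals, and a list of 19 genes induced by them was read beside it. Of 33 tested probe sets 4 were called higher and 0 lower, against 0.455% of all probe sets called. The 4 belonged to 2 genes of the glucocorticoid group, whose 22 probe sets, from 9 genes, had a median difference of 0.52. All 22 were above 0, beside 60.4% of all tested probe sets. The 11 probe sets of the cAMP or activity group had a median of 0.12, from -0.15 (Crem) to 0.41 (Sik1), and 0 of them were called. Zbtb16, a zinc finger factor, read 142.6, 165.3, 86.7, 117.5 and 234.5 in wild type and 289.4, 667.2, 479.4, 368.0, 802.9 and 338.3 in KO, with groups apart and a log2 difference of 1.59 ± 0.26 (SE; limma adjusted p = 0.0055). Its second probe set gave 1.92 (adjusted p = 0.017). Klf9, a Krüppel-like factor, read 5045 to 6123 in wild type and 6417 to 9014 in KO, a difference of 0.52 ± 0.10 (SE; limma adjusted p = 0.015), and 0.64 on the next called probe set (adjusted p = 0.028). On the second Zbtb16 and the other called Klf9 probe set, the limma adjusted p reached 0.25 and 0.49 over the alternatives. The call of the brightest Klf9 probe set was lost in settings that include scaling to the array median (adjusted p = 0.39). It was also lost without WT 3 (adjusted p = 0.071) and without WT 5 (adjusted p = 0.063). That of the brightest Zbtb16 probe set was lost within the sets of higher and lower poly-A controls, where the differences were 1.505 and 1.637 (adjusted p = 0.23 and 0.15), and the difference lay between 1.34 and 1.75 under all 28 alternatives. Tsc22d3 (GILZ) missed the threshold with 0.92 ± 0.20 (SE; limma adjusted p = 0.058), although its groups did not overlap, and passed it under 5 of the 28 alternatives, among them array weights (adjusted p = 0.014) and the fit without KO 2 (0.72, adjusted p = 0.028). The mean of its probe sets gave 0.45 (adjusted p = 0.30). On the brightest probe sets the highest KO array was KO 6 for Per1, KO 5 for Zbtb16 and KO 2 for Tsc22d3. For Klf9, KO 6 (9014) and KO 2 (8988) were nearly equal. On the second brightest Klf9 probe set KO 2 was highest (5397). Whether the difference of Per1 and those of this list have a shared source was not tested.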

How the data were processed

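The MOE RNA was amplified in 2 rounds, labelled and hybridized to Affymetrix expression arrays of the mouse genome. Signals came from GCOS, for which the submitters' notes name no version. The deposited values are linear intensities that the authors scaled to GAPDH, whose probe set reads 10000 on every array. Since it was set equal on all arrays, a group difference in GAPDH itself would shift every value. Of 45101 probe sets, 64 were controls and were left out. In the platform annotation 34958 probe sets had 1 gene symbol, 932 several and 9211 none.

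Here intensities were used as log2(signal + 16), which understates changes of dim probe sets, and probe sets with a mean under 20 were not tested. KO and wild type were compared over the 33662 that remained with limma 3.58.1 in R 4.3.3 (lmFit, eBayes with intensity trend, no covariate, all 11 arrays). P-values were adjusted over all of them by the Benjamini-Hochberg method (threshold 0.05). The brightest tested probe set stood for a gene where 1 value was needed. Other tables used Python 3.11.15 and scipy 1.17.1. The fit was tested on simulated data. The number of arrays limits the precision.

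The members, lists and tests were chosen with earlier results of these data known. Named were every member, the other clock genes that passed the test, the arm genes Arntl, Npas2 and Nfil3 and the 4 other clock genes of smallest p, and of the induced genes those that passed and the 3 of smallest p. Also named were the 5 genes closest to Dbp and the 5 most opposed to it. Replicate numbers did not pair the arrays (correlations of same-numbered deviations -0.28 to 0.01). Alternatives covered scaling, pseudocounts of 1 and 64, filters of none and 100, eBayes without the trend, array weights, sex, a replicate block, a split of the arrays at their poly-A control signals (5 and 6 arrays, inferred from the values and named in no label), the mean of a gene's probe sets and leaving out each array. Fits within each of these sets and without KO 2 and KO 3 were added after seeing the data. Sequences came from the RefSeq tables of GRCm38.p6.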

Additional observations from a re-analysis of the deposited data

Results flagged for a closer look

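Each sample of a group of 5 or 6 was compared with its neighbours by the gap to the nearest array over the range of the group. Chance flags about 1 in 20 groups, or 3.2 of the 64 groups examined, and 4 were found. On the dimmer Per2 probe set WT 1 read 31.1, below the other wild type arrays (57.8 to 69.4), with a gap of 0.755 of the range. On the third Clock probe set WT 4 read 117.1, below the others (180.0 to 206.8), with a gap of 0.751. On the fourth Clock probe set WT 2 read 48.0, above the others (32.3 to 35.7), with a gap of 0.758. In the difference between the clock arms KO 6 stood above the other KO arrays with a gap of 0.676, and its cause was not tested.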

How the results depend on the processing

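The clock probe sets called stayed at 0 under all 28 alternatives, and the differences of Per1, Per2, Per3, Usp2, Nampt, Timeless, Nfil3, Zbtb16, Klf9 and Tsc22d3 on the brightest probe sets kept their sign under all of them. The calls of Zbtb16 and Klf9 did not all hold, with the highest limma adjusted p reaching 0.23 and 0.39 on the brightest probe sets. On their other called probe sets it reached 0.25 and 0.49. All probe sets called numbered 293 with quantile normalization, 316 with scaling to spiked hybridization controls, 345 with array weights, 31 and 39 within the sets of arrays with higher and lower poly-A controls, 284 without KO 2 and KO 3, and 85 to 213 when 1 array was left out (85 without WT 3, 97 without WT 5). With the replicate block (10 arrays, without KO 6) 92 were called, and the difference of Per1 was 0.54 and that of Tef -0.03. The block changed no call of a clock gene, and no wild type array correlated best with the KO array of its own number. Spiked control scaling moved the median of all probe sets from 0.05 to -0.12.

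Small differences changed sign with the setting, at adjusted p-values of 0.46 or more throughout. Under median scaling, quantile normalization and spiked control scaling, in this order, Tef gave -0.031, -0.046 and -0.16, Nr1d2 -0.0018, -0.0136 and -0.13, Clock -0.0067, -0.0095 and -0.13, Arntl -0.027, -0.035 and -0.15, and Npas2 -0.037, -0.053 and -0.15. Spiked control scaling also turned Dbp to -0.026 and Rora to -0.062. Array weights gave 0.036 for Cry1 and 0.0065 for Cry2, and males only as well as sex as a covariate gave 0.13 and 0.0045. The poly-A set as a covariate gave -0.017 for Tef, -0.0155 for Arntl and -0.0091 for Npas2. Within the lower set Tef was -0.16, Nr1d2 -0.084, Clock -0.075 and Arntl -0.20, and within the higher set Cry2 was 0.048 and Npas2 -0.24. Without KO 2 and KO 3 Cry1 was 0.011, Cry2 0.10 and Npas2 -0.0058. The mean of all probe sets gave -0.057 for Tef and -0.0335 for Clock. When each array was left out in turn, Per1 ran from 0.51 to 0.84, Per2 from 0.05 to 0.33, Per3 from 0.18 to 0.38, Dbp from 0.06 to 0.22, Cry1 ran from -0.14 to 0.079, Cry2 from -0.13 to 0.030, Tef from -0.077 to 0.14, Nr1d1 from -0.38 to 0.072, Nr1d2 from -0.0415 to 0.22, Clock from -0.025 to 0.11, Rora from -0.029 to 0.25, Arntl from -0.14 to 0.19 and Npas2 from -0.067 to 0.10. The difference in the arm index ran from 0.03 to 0.17 over its 26 alternatives. In the correlations with Dbp, median scaling gave -0.26 for Per2, -0.20 for Per3 and -0.038 for Nr1d2. Males only gave -0.084 for Nr1d1 and -0.10 for Nr1d2. Nr1d2 was also -0.058 without the 2 farthest arrays and -0.026 within the lower set. The cause of these changes was not tested. With 11 arrays and unknown dissection times, a phase difference could have been missed. The smallest detectable one was not estimated.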

Other observations

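The search covered 15065 genes outside the clock, induced-gene and cell type marker lists. Those whose deviations from group means were most like those of the brightest Dbp probe set over the 11 arrays were Upk3bl (r = 0.95), Nim1k (r = 0.95), Dancr (r = 0.94), Zbtb7b (r = 0.93) and Srcin1 (r = 0.92). The most opposed were Col4a6 (r = -0.86), Trpt1 (r = -0.82), Snx20 (r = -0.78), Stra8 (r = -0.78) and Hes7 (r = -0.77). These values are a description chosen from all the genes searched, and clock genes were left out of the search. On their brightest probe sets, the other genes of both arms and Cry2 had r with Dbp from -0.295 (Cry1) to 0.52 (Per2).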
